A study of Homo sapiens with 9 samples.

Results

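The histone genes of the Z138 transcriptome were described in cells that differ in SOX11. The members were the 76 genes of the expression table, of 16586 in all, whose symbols begin with H1-, H2AC, H2BC, H3C or H4C and a digit, or name 1 of the variants given below. They divide into 60 replication-dependent genes (4 for the linker histone H1, 15 for H2A, 16 for H2B, 13 for H3 and 12 for H4), 10 variant genes and 6 genes whose symbols end in P for pseudogene. The rule used symbols and no measured value.

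Z138 is a human mantle cell lymphoma line, a B cell cancer in which the transcription factor SOX11 is commonly expressed. RNA was sequenced from 3 groups of 3 libraries each. They were a SOX11 rescue line, labelled as a SOX11 knockout with SOX11 restored, the SOX11 knockout line and wild-type Z138. Replicates 1, 2 and 3 of each group carry batch labels 1, 2 and 3. The sources used here do not say whether an edited line is 1 clone, how SOX11 was restored, or whether replicates were separate cultures, so the p-values measure the spread between these libraries alone.

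Replication-dependent histone genes supply the bulk histones that package newly made DNA, and their transcripts rise in S phase. Their mRNAs are the known exception to polyadenylation in animal cells: a short conserved stem-loop, bound by the stem-loop binding protein SLBP, forms the 3′ end, although many of the genes can also yield polyadenylated transcripts. Variant histone genes (H1-10, H2AX, H2AZ1, H2AZ2, H2AJ, H3-3A, H3-3B, MACROH2A1 and MACROH2A2 among them) produce polyadenylated mRNA largely outside this control, and H2AX is known to give both forms. The labels call the RNA polyadenylated, whereas the protocol names a poly(A) kit or a total RNA kit without saying which library had which. The part of the kit in any difference below was not tested.

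Transcripts of the GENCODE annotation (release 29, GRCh38) were searched for these elements. A perfect 6-base stem around a 4-base loop was found in the annotated transcripts of 26 of the 60 replication-dependent genes, and in 1 of the 10 variant genes, H2AX. The forms found are shown because the H4 genes carried a different stem from the H2A, H2B and H3 genes, with the stem in capitals and the loop in lower case.
15 genes of H2A, H2B and H3, H2AC6 and H2BC21 among them: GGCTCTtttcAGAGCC
4 genes of H2B and H3, H2BC5 among them: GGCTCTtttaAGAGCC
4 genes of H4, H4C11 among them: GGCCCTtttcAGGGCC
3 genes of H4, H4C9 among them: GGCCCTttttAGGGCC
H2AX: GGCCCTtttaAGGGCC

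A polyadenylation hexamer, AATAAA or ATTAAA on the transcript strand within 50 bases of an annotated end, was present for 22 replication-dependent genes, 19 of which also held the stem-loop. All 10 variant genes held one. For 26 replication-dependent genes the annotated model was the coding sequence alone, so these could show neither element. Of the 58 replication-dependent genes with an annotated position, 47 lie on chromosome 6 and 11 on chromosome 1.

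The promoters printed next belong to the 6 replication-dependent genes that were lower in both edited lines, and to H1-10, the variant with the largest difference between rescue and knockout. Each is the 150 bases before the RefSeq start in GRCh38.p14, written 5′ to 3′ on the gene's strand. Capitals mark CCAAT (or ATTGG on the other strand), TATAAA, and the octamer ATGCAAAT (or ATTTGCAT), the site named for POU-domain factors. The intervals are chr6:26056471-26056620, minus strand (H1-2), chr6:26124022-26124171, plus strand (H2AC6), chr6:26157971-26158120, plus strand (H2BC5), chr6:27132796-27132945, minus strand (H2BC11), chr6:27146859-27147008, minus strand (H2BC12), chr6:27139132-27139281, plus strand (H4C9) and chr3:129316287-129316436, minus strand (H1-10).
H1-2: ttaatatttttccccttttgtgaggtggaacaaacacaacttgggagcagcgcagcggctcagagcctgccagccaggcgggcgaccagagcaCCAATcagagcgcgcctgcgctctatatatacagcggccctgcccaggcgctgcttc
H2AC6: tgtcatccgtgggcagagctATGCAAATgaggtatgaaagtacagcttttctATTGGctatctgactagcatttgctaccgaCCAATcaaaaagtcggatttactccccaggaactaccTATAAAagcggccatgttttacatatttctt
H2BC5: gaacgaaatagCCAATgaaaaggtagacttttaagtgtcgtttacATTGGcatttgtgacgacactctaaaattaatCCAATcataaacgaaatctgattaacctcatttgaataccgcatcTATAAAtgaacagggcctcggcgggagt
H2BC11: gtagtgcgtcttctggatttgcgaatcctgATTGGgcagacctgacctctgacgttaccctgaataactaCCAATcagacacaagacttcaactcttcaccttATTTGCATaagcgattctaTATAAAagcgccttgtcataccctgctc
H2BC12: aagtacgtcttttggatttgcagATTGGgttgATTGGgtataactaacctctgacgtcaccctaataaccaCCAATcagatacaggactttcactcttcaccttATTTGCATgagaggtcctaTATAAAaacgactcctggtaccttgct
H4C9: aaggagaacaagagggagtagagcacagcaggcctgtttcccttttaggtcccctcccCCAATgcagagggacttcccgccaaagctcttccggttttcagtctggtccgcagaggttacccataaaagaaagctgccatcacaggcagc
H1-10: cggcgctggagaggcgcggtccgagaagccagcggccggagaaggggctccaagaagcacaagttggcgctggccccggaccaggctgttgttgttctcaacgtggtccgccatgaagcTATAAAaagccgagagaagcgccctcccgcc

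Promoter sequence was matched for 55 replication-dependent and 9 variant genes, and 250 bases before each start were searched on both strands. CCAAT was present in 47 of the 55 replication-dependent promoters (85.5%) and in 6 of the 9 variant promoters, against 9021 of all 27305 RefSeq promoters. TATAAA was found in 37 of the 55 (67.3%), against 3040 of all promoters. The octamer was found in 24 of the 55 (43.6%), 13 of them among the 16 H2B promoters, against 1.66% of all promoters. Hexamers that SOX proteins are known to bind were not more frequent than in promoters at large. ACAAAG occurred in 6 of the 55 (10.9%), against 13.7% of all promoters, and ACAATG in 3 (5.46%), against 9.45%. Of the 6 promoters of genes lower in both edited lines, all 6 held CCAAT, 4 held TATAAA, 3 held the octamer, 1 (H2BC11) held ACAAAG and none held ACAATG. Among the 27 other tested replication-dependent genes with a promoter, 21 held CCAAT, 18 TATAAA, 10 the octamer, 2 ACAAAG and 2 ACAATG. A match describes letters in this window and not occupancy by a factor.

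Values are given as normalized counts, recovered from the deposited log2 values. Those were taken as variance-stabilized, which compresses low genes; this was inferred from their shared lowest value and is not stated in the sources used here, and every count and fold rests on it. A log2 difference on this scale therefore understates the change of a gene with few counts, and the ratio of mean counts is given beside it. Depth was estimated at 30757000 to 40739200 reads per library, and 1 read was worth 0.859 to 1.13 normalized counts. A gene was tested when it reached 1 CPM (its count scaled to a common library total) in at least 3 libraries, which 11542 genes did. limma was run on all of them at once with Benjamini-Hochberg adjustment, and "called" means an adjusted p under 0.05. SOX11, the targeted gene, had 12818, 13849 and 12715 normalized counts in rescue libraries, 901, 1335 and 862 in knockout libraries and 3800.4, 3845 and 3003 in wild-type libraries. The knockout mean was 29.1% of the wild-type mean, so SOX11 transcript was lower but present in the knockout, and the rescue mean was 3.7-fold that of wild type. The 6 B cell markers had summed counts of 45972 to 53262 in rescue, 43417 to 48809 in knockout and 43883 to 52744 in wild-type libraries. Among them PAX5, a B cell transcription factor, was called higher in the rescue than in the knockout (log2 difference 0.68, limma adjusted p 0.0231), a call lost without knockout replicate 1 or 3, rescue replicate 2, or batch 1 or 3 (0.0803 to 0.159). The cyclin gene CCND1, the defining gene of mantle cell lymphoma, was at 106410 to 136858 counts in every library and was called lower in the rescue than in wild type (log2 difference -0.25, limma adjusted p 0.0411). That call was lost when any library but wild-type replicate 3, any batch, or the whole knockout was left out (0.0557 to 0.331). The 4 T cell markers in the table summed to 467 to 489, 549 to 649.9 and 346 to 483, the 2 NK cell markers to 33.2 to 63.7, 23.1 to 60.4 and 17.6 to 30.5, the 3 monocyte markers to 32.3 to 41.1, 22.7 to 26.5 and 10.7 to 14.6, and the 1 epithelial marker to 42.3 to 52.5, 31.4 to 63.0 and 37.8 to 62.3, each in rescue, knockout and wild-type libraries in that order; no erythroid marker had values here. CD3E, a T cell receptor subunit, was called higher than in wild type in both edited lines (lost without batch 1 or 3 in the knockout, and without any batch, any wild-type replicate, or rescue replicate 2 or 3 in the rescue, limma adjusted p 0.0626 to 0.268), and the part of other cells in the histone values was not tested.

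The classes differed widely in level. The 10 variant genes summed to 141816, 145728 and 141622 normalized counts in rescue libraries, 118025, 119974 and 115918 in knockout libraries and 137463, 138113 and 132695 in wild-type libraries. The 60 replication-dependent genes summed to 2588, 2552 and 2735 normalized counts in rescue libraries, 2526, 2341 and 4495 in knockout libraries and 4445, 6563 and 7296 in wild-type libraries. The replication-dependent sum lay below every wild-type library in all 3 rescue libraries and in knockout replicates 1 and 2, while knockout replicate 3 lay just above the lowest wild-type library. The mean replication-dependent sum was 2625 ± 96.9 in the rescue, 3121 ± 1193 in the knockout and 6101 ± 1480 in wild type (SD, n = 3 each), 43.0% of wild type in the rescue and 51.1% in the knockout. The mean variant sum was 143055 ± 2316 in the rescue, 117972 ± 2029 in the knockout and 136090 ± 2958 in wild type, 105% of wild type in the rescue and 86.7% in the knockout. These sums are descriptions without a test. In bulk RNA, fewer cells making a transcript and less of it per cell cannot be told apart.

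**Figure D1:**
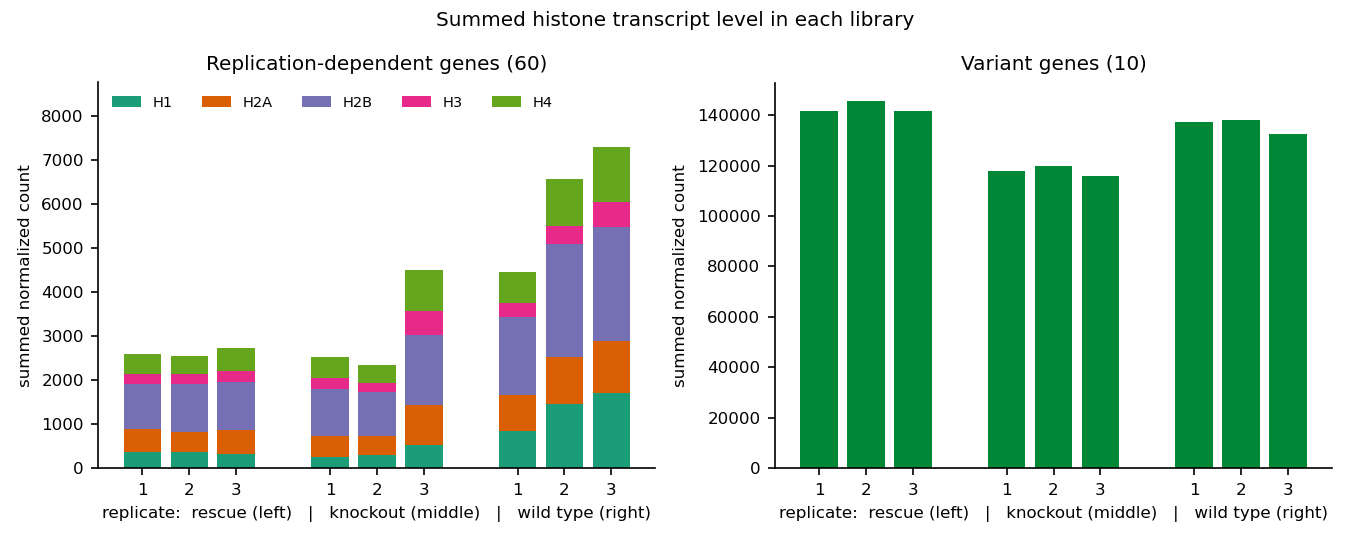
Summed normalized counts of the 60 replication-dependent genes (left, stacked by histone family) and of the 10 variant genes (right) in each library, with rescue, knockout and wild-type replicates from left to right and each y axis starting at 0. The replication-dependent bars stand at 2552 to 2735 in the rescue, 2341 to 4495 in the knockout and 4445 to 7296 in wild type, whereas the variant bars stay between 115918 and 145728.

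All 5 families contributed to the lower replication-dependent sum, to unequal extents. The H1 sum was 26.2% of wild type in the rescue and 27.3% in the knockout, the lowest share of any family in either line. The H2A sum was 49.3% and 58.0% of wild type, the H2B sum 46.4% and 53.1%, the H3 sum 53.6% and 76.8%, and the H4 sum 46.7% and 60.1%, in the rescue and in the knockout in that order. These are ratios of means. Knockout replicate 3 lay inside the wild-type range for H2A (890 against 829 to 1188), H3 (542 against 316 to 572) and H4 (921 against 689 to 1246). For H1 and H2B it lay below every wild-type library. Without the 6 genes described next, the remaining sum was 1825 ± 122 in the rescue, 2249 ± 1073 in the knockout and 3233 ± 702 in wild type, 56.4% of wild type in the rescue and 69.6% in the knockout.

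Of the 60 replication-dependent genes, 34 were tested: 3 of H1, 7 of H2A, 10 of H2B, 6 of H3 and 8 of H4. No gene passed the level filter through 1 group alone. In the knockout against wild type, 6 of the 34 fell and none rose, beside 12.7% of all tested genes called (7.37% lower and 5.36% higher). The 6 were H1-2, H2AC6, H2BC5, H2BC11, H2BC12 and H4C9. In the rescue against wild type, 7 of the 34 fell, the same 6 and H2BC21, beside 4.07% of all tested genes called (1.78% lower and 2.3% higher). All 6 were thus lower in both edited lines, which held for 102 tested genes, or 0.884%. These 2 comparisons share the wild-type libraries.

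In the rescue against the knockout, limma called none of the 34, beside 22.1% of all tested genes (11.5% higher and 10.7% lower). SOX11 transcript in the rescue was above its wild-type level, and the part of other differences between these lines was not tested. The smallest adjusted p was 0.102 and 1 of the 34 had an unadjusted p under 0.05. No replication-dependent gene fell in the knockout and rose in the rescue, a pattern called for 643 tested genes (5.57%). Both comparisons in that pattern share the knockout libraries. The median log2 difference of the 34 was −0.12 for knockout against wild type, beside 0.0048 over all tested genes. It was −0.045 for rescue against knockout, beside −0.0065, and −0.18 for rescue against wild type, beside −3.17e-05. With the batch as a block, 2481 of all 11542 tested genes were called in the knockout against wild type, against 1470 without it, and 930 in the rescue against wild type, against 470. The block called 8 of the 34 in the knockout against wild type (adding H2BC8 and H2BC21), a share near that of all tested genes. It called 10 in the rescue against wild type (adding H2AC19, H4C8 and H4C15). In the rescue against the knockout it called none, and its count over all tested genes there is not given here. H2AC19 was listed at 0 in rescue replicate 3 and H4C15 at 0 in rescue replicate 1. Each has a near copy among the members, and reads may be split uncertainly between copies.

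**Figure D2:**
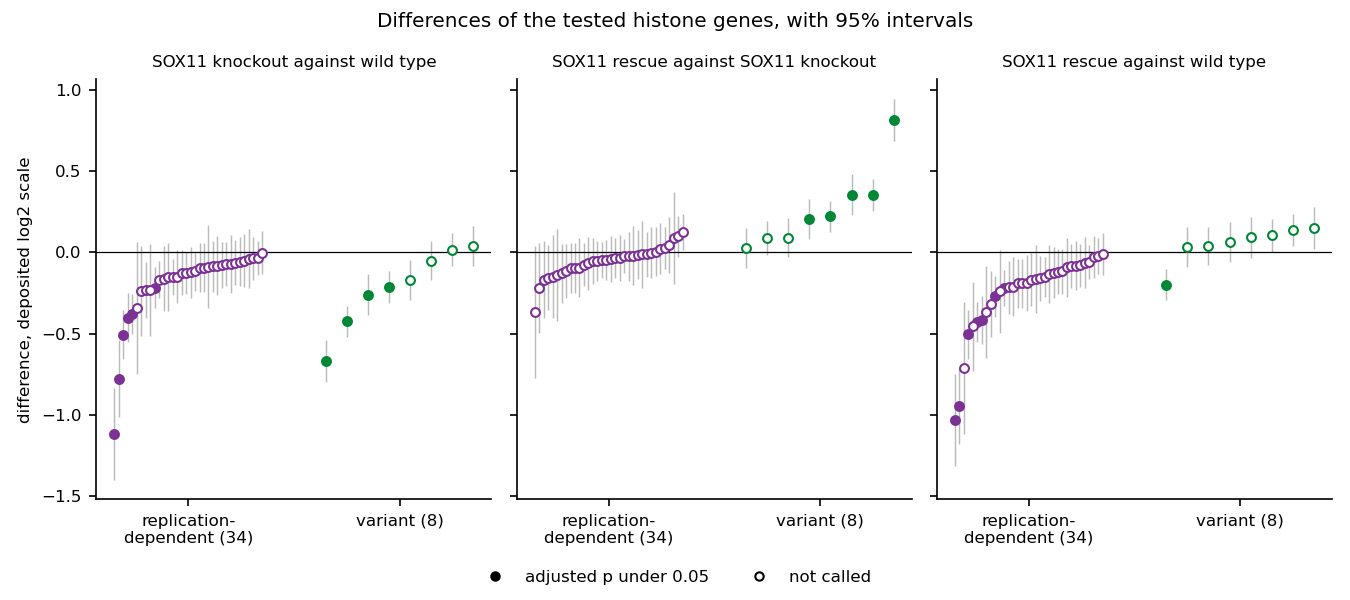
Log2 differences of the tested histone genes on the deposited scale, with 95% intervals, for the 34 replication-dependent genes (purple) and the 8 variant genes (green) in each comparison, sorted within each class; filled points were called at an adjusted p under 0.05. Every replication-dependent estimate lies below 0 against wild type in both edited lines, 6 filled in the knockout and 7 in the rescue, and none is filled between rescue and knockout, where 5 variant genes are filled above 0.

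H1-2, a linker histone that binds DNA between nucleosomes, had the highest mean count of the replication-dependent genes in wild type, without scaling by length. H1-2 (chr6:26055787-26056428, minus strand) had 297, 295 and 254 normalized counts in rescue libraries, 193, 242 and 289 in knockout libraries and 729, 1278 and 1442 in wild-type libraries. Every library of both edited lines was below the lowest wild-type library, and the rescue and knockout ranges overlapped. Its mean was 4.77-fold lower in the knockout than in wild type (log2 difference -1.12 ± 0.13 SE, limma adjusted p 0.000163) and 4.08-fold lower in the rescue (-1.03, limma adjusted p 0.000893). Within batches 1, 2 and 3 the knockout differed from wild type by -0.85, -1.24 and -1.26 and the rescue by -0.62, -1.13 and -1.33. Without replicate 3 of every group the rescue difference was −0.88 and no longer called (limma adjusted p 0.056). Between rescue and knockout the difference was 0.089, with a 95% interval of -0.19 to 0.37. H1-2 made up 11.5%, 11.6% and 9.29% of the replication-dependent sum in rescue libraries, 7.62%, 10.3% and 6.43% in knockout libraries and 16.4%, 19.5% and 19.8% in wild-type libraries.

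The other H1 genes were less abundant in wild type and were not called. H1-5 had 29.5, 26.6 and 25.1 normalized counts in rescue libraries, 27.4, 24.2 and 137 in knockout libraries and 41.1, 69.3 and 117 in wild-type libraries. H1-4 had 32.6, 23 and 25.1 normalized counts in rescue libraries, 30.9, 18.9 and 70.3 in knockout libraries and 43.7, 70.3 and 90.3 in wild-type libraries, and H1-3 was below the level filter. For H1-4 and H1-5 the rescue libraries lay below all wild-type libraries, while knockout replicate 3 lay well above the other knockout libraries and inside or above the wild-type range.

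Among H2A genes, whose product pairs with H2B in the nucleosome, H2AC6 was the one called. H2AC6 (chr6:26124145-26139116, plus strand) had 65.6, 48.3 and 63.5 normalized counts in rescue libraries, 43.4, 59.1 and 74.4 in knockout libraries and 184, 190.2 and 295 in wild-type libraries. The edited lines lay wholly below wild type and overlapped each other. The mean was 3.78-fold lower in the knockout (log2 difference -0.51 ± 0.069 SE, limma adjusted p 0.000541) and 3.77-fold lower in the rescue (-0.50, limma adjusted p 0.00163). Rescue and knockout differed by 0.0028 (95% interval -0.15 to 0.15). H2AC19 was not called in either line (limma adjusted p 0.268 in the knockout and 0.0598 in the rescue against wild type). It was called in the rescue with the batch block (limma adjusted p 0.0326) and in the knockout without replicate 3 of every group (limma adjusted p 0.0196). H2AC18 is a near copy of it, and reads may be split uncertainly between them: in rescue replicate 3 H2AC19 was listed at 0 and H2AC18 had 134 normalized counts, while in rescue replicates 1 and 2 H2AC18 was listed at 0. Their sum is therefore given. It was 117, 121 and 134 normalized counts in rescue libraries, 119, 123 and 249 in knockout libraries and 271, 409 and 382 in wild-type libraries, a mean of 124 ± 8.47 in the rescue, 164 ± 74.2 in the knockout and 354 ± 72.7 in wild type, with every edited library below wild type. The other 5 tested H2A genes had wild-type means of 30.7 (H2AC17) to 107 (H2AC11) and none was called.

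H2B genes gave 3 of the 6 calls. H2BC12 (chr6:27146418-27146798, minus strand), the highest replication-dependent gene per length in wild type, had 213, 259.8 and 215 normalized counts in rescue libraries, 255, 329 and 351 in knockout libraries and 626, 1067 and 1061 in wild-type libraries. H2BC11 (chr6:27125897-27132750, minus strand) had 29.1, 21.7 and 47.6 normalized counts in rescue libraries, 41.3, 36.9 and 41.8 in knockout libraries and 105, 147 and 157 in wild-type libraries. H2BC5 (chr6:26158146-26171349, plus strand) had 124, 122 and 116 normalized counts in rescue libraries, 127, 117 and 175 in knockout libraries and 191, 234 and 242 in wild-type libraries. For all 3 genes every rescue and knockout library was below every wild-type library, and rescue overlapped knockout. H2BC12 was 2.94-fold lower in the knockout (log2 difference -0.78 ± 0.11 SE, limma adjusted p 0.000619) and 4-fold lower in the rescue (-0.95, limma adjusted p 0.000484), and the rescue call was lost without replicate 3 of every group (limma adjusted p 0.0508). H2BC11 was 3.41-fold lower in the knockout (limma adjusted p 0.00103) and 4.16-fold lower in the rescue (limma adjusted p 0.00123). H2BC5 was 1.59-fold lower in the knockout (limma adjusted p 0.0269) and 1.84-fold lower in the rescue (limma adjusted p 0.0203).

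The H2BC5 calls depended on several libraries. The knockout call was lost when knockout replicate 1 or 2, wild-type replicate 2 or 3, or any batch was left out (limma adjusted p 0.0672 to 0.174) and when the rescue was left out of the fit (0.0622). The rescue call was lost when any rescue replicate, wild-type replicate 2 or 3, or any batch was left out (limma adjusted p 0.0572 to 0.189). An antisense gene overlaps H2BC5 in the annotation, and library strand was not assigned here, so reads of the pair cannot be told apart. Within batches the H2BC12 difference between knockout and wild type was -0.59, -0.89 and -0.85. Each of the 6 genes was lower in both edited lines in all 3 batches, which follows from every edited library lying below every wild-type library.

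H2BC21 (chr1:149884459-149886652, minus strand) had 53.5, 43.2 and 56.3 normalized counts in rescue libraries, 55.6, 47.5 and 83 in knockout libraries and 101, 113 and 96.6 in wild-type libraries. Both edited lines lay below wild type, but knockout replicate 3 stood apart from the other knockout libraries. The rescue mean was 2.03-fold lower than wild type (limma adjusted p 0.0369), a call lost when any rescue or wild-type replicate, knockout replicate 1 or any batch was left out (0.0574 to 0.242). In the knockout it was not called (limma adjusted p 0.0515), and was called with the batch block (0.0377) or without knockout replicate 3 (0.0228). H2BC9 was the one replication-dependent gene with an unadjusted p under 0.05 between rescue and knockout. It had 197, 224 and 229.7 normalized counts in rescue libraries, 163, 146 and 192 in knockout libraries and 228, 241 and 212 in wild-type libraries. Rescue libraries overlapped wild type and lay above all knockout libraries, with a log2 difference from the knockout of 0.13 (95% interval 0.015 to 0.24, limma adjusted p 0.102), and H2BC9 was chosen for mention after its values were seen.

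None of the 6 tested H3 genes was called in any of the 3 comparisons. Their wild-type means were 37 (H3C2) to 63.1 (H3C8) normalized counts. The smallest limma adjusted p was 0.303 in the knockout against wild type, with 0 of the 6 at an unadjusted p under 0.05, beside 3068 of all 11542 tested genes. It was 0.302 in the rescue against the knockout (0 of the 6, beside 3958) and 0.186 in the rescue against wild type (3 of the 6, beside 1871). H3C14 and H3C15 share an identical annotated transcript and had identical values, so they are 1 measurement, although each is counted among the 6 and among the 3.

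H4C9 was the called gene of the H4 family, which pairs with H3 at the nucleosome core. H4C9 (chr6:27138588-27139881, plus strand) had 76.6, 77.2 and 76 normalized counts in rescue libraries, 70.6, 81.2 and 89.7 in knockout libraries and 147, 249 and 262 in wild-type libraries. The edited libraries lay within a narrow band, all below wild type. The mean was 2.72-fold lower in the knockout (log2 difference -0.40 ± 0.068 SE, limma adjusted p 0.00245) and 2.86-fold lower in the rescue (-0.42, limma adjusted p 0.0054). Without replicate 3 of every group neither was called (limma adjusted p 0.0623 and 0.15), and without replicate 2 of every group the rescue was not (0.0702). H4C11, the fourth gene per length in wild type, had 128, 103 and 167 normalized counts in rescue libraries, 102, 89 and 115 in knockout libraries and 121, 162 and 139.5 in wild-type libraries and was not called in any comparison. H4C14 and H4C15 share a transcript, and in rescue replicate 1 H4C15 was listed at 0 and H4C14 had 89.8 normalized counts. Their sum was 89.8, 87.9 and 129.9 normalized counts in rescue libraries, 141, 81.8 and 306 in knockout libraries and 215, 319 and 386 in wild-type libraries.

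**Figure D3:**
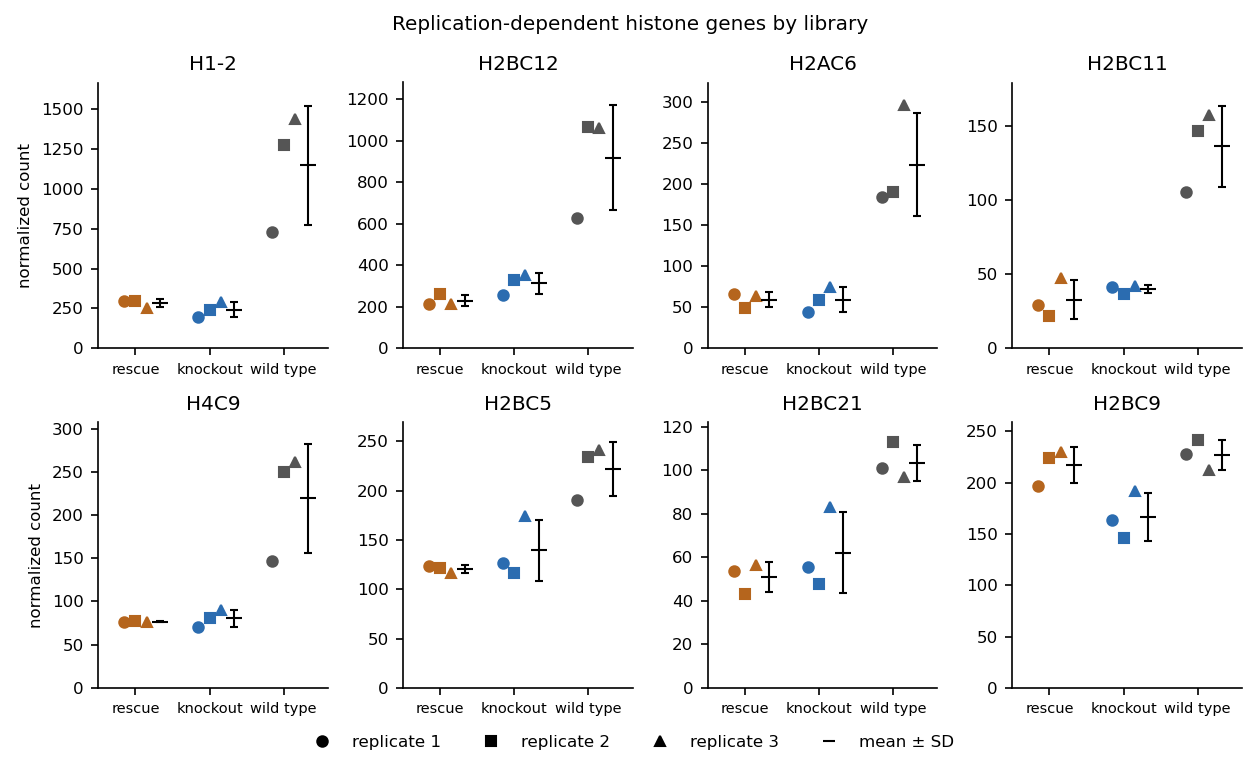
Normalized counts of 8 replication-dependent histone genes in each library (points, shaped by replicate), with the mean and SD of each group of 3, every y axis starting at 0. For H1-2, H2BC12, H2AC6, H2BC11, H4C9 and H2BC5 all rescue and knockout points lie below all wild-type points, H2BC21 shows knockout replicate 3 at 83.0 nearest to wild type, and H2BC9 shows rescue points at wild-type level.

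The 26 replication-dependent genes below the filter had wild-type means of 2.01 to 46.1 normalized counts. Their mean was below wild type for 25 of the 26 in the rescue and for 18 of the 26 in the knockout. Over the full set of 60, the mean was below wild type for 59 genes in the rescue and 52 in the knockout, and below the knockout for 48 genes in the rescue. On the log2 scale, 5773 of all 11542 tested genes were below wild type in the rescue and 5570 in the knockout. Against the knockout, 5975 of them were lower in the rescue. The median gene of the 60 had 53.4% of its wild-type mean in the rescue and 71.8% in the knockout. The 60 genes share these 9 libraries and their normalization, and are not replicates of one another.

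Knockout replicate 3 stood apart for the replication-dependent class. It was the highest knockout library for 33 of the 34 tested genes (97.1%), where it was the highest knockout library for 31.7% of all tested genes. Its median deviation from the knockout mean was 0.12 on the log2 scale over the 34, against −0.011 over the 8 variant genes, −0.032 over a list of 30 S phase genes and −0.0011 over all tested genes. H3C2 had 12.4, 10.5 and 58.8 normalized counts in the knockout libraries and H4C4 had 7.95, 9.42 and 60.9. Wild-type replicate 1 was the lowest wild-type library for 27 of the 34, where it was the lowest for 3501 of all 11542 tested genes. What sets these libraries apart was not tested. Without knockout replicate 3, 9 of the 34 were called in the knockout against wild type and the median difference was −0.19, and the median in the rescue against the knockout changed sign to 0.012. Without wild-type replicate 1, 6 were called in the knockout. Over all 11542 tested genes, runs without 1 library or 1 batch gave 574 to 1395 calls in the knockout against wild type, against 1470 in the full fit. The count over all genes in each of the runs just named is not given here.

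**Figure D4:**
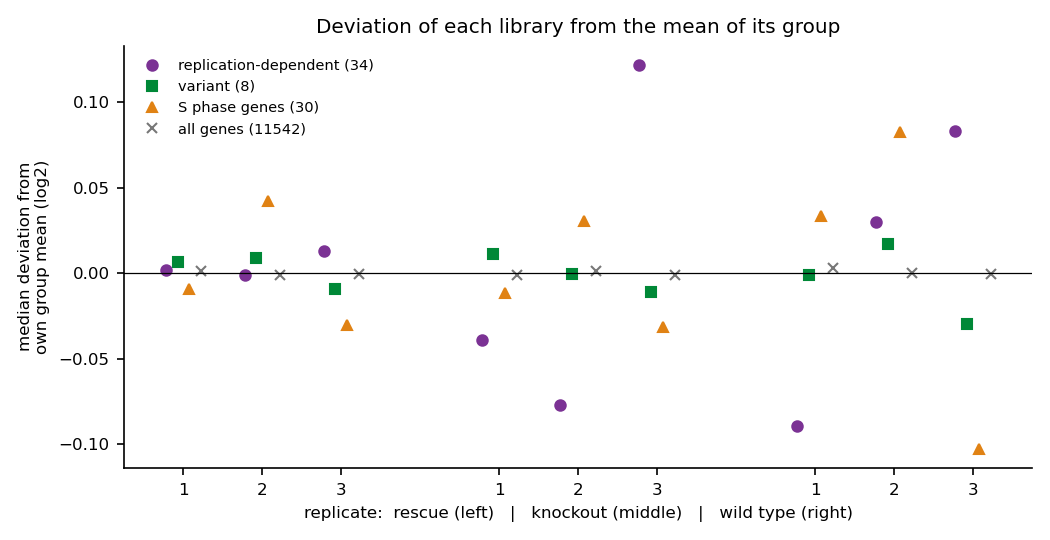
Median deviation of each library from the mean of its own group, in log2 units of the deposited scale, for 34 replication-dependent genes (circles), 8 variant genes (squares), 30 S phase genes (triangles) and all 11542 tested genes (crosses), with rescue, knockout and wild-type replicates from left to right. Knockout replicate 3 is the highest circle at 0.12 with its triangle at −0.032, and all genes stay near 0 in every library.

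Genes that begin close together on opposite strands did not always share a call. Of 10 such pairs of replication-dependent genes, with starts within 1000 bases, 4 had both genes tested. H2BC11 and H2AC11 start 292 bases apart. H2BC11 was called lower in both edited lines as above, while H2AC11 had 70.2, 64.3 and 92.1 normalized counts in rescue libraries, 80.3, 63.4 and 117 in knockout libraries and 126, 80.1 and 117 in wild-type libraries and was not called in either (limma adjusted p 0.497 in the knockout and 0.406 in the rescue). H2AC6 and H2BC4 start 219 bases apart. H2BC4 had 55.1, 58.4 and 55.5 normalized counts in rescue libraries, 52.9, 51 and 93 in knockout libraries and 76.2, 96.2 and 109 in wild-type libraries, with limma adjusted p 0.215 in the knockout and 0.19 in the rescue against wild type. The difference between partners was not tested.

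Calls were counted in genes with and without the polyadenylation hexamer. In the knockout against wild type, 3 of the 21 tested genes with a hexamer fell (H2AC6, H2BC5 and H2BC11), as did 3 of the 12 tested annotated genes without one (H1-2, H2BC12 and H4C9). The counts for the rescue against wild type were 4 of 21 and 3 of 12. The median log2 difference was −0.17 in both sets in the rescue, and −0.12 with and −0.11 without a hexamer in the knockout. H1-2 and H2BC12 have models of coding sequence alone, in which a hexamer could not appear. By chromosome, 6 of the 25 tested genes on chromosome 6 and none of the 8 on chromosome 1 fell in the knockout, where 1 of the 8, H2BC21, had an unadjusted p under 0.05, beside 7.37% of all tested genes called lower. In the rescue against wild type, 6 of the 25 on chromosome 6 and 1 of the 8 on chromosome 1 fell, beside 1.78% of all tested genes. At an unadjusted p under 0.05 the rescue counts were 11 of the 25 and 7 of the 8, all lower, beside 913 of all 11542 tested genes lower. The median log2 differences were −0.15 on chromosome 6 and −0.20 on chromosome 1. Both the 7 and the 8 include H3C14 and H3C15, which are 1 measurement, and H4C14 and H4C15, which share a transcript.

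Among the variant genes, 8 were tested and 4 fell in the knockout against wild type: H1-10, H2AX, H3-3A and MACROH2A1, beside 7.37% of all tested genes. In the rescue against the knockout, those 4 and H3-3B rose and none fell, beside 11.5% of all tested genes called higher. So 4 of the 8 variant genes showed the fall and rise that 5.57% of all tested genes showed, in comparisons that share the knockout libraries. Against wild type, 1 fell in the rescue, H2AX, beside 1.78% of all tested genes. The fall and rise in 4 of the 8 differs in count from the 0 of 34 replication-dependent genes with that pattern. The difference between the classes was not tested, and their levels differ: the median wild-type level per kilobase of transcript was 9813 normalized counts for the variant genes and 75.4 for the 58 replication-dependent genes with an annotated length.

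H1-10 (chr3:129314771-129316277, minus strand), a linker histone made outside S phase as well, had 10581, 11084 and 11178 normalized counts in rescue libraries, 5571, 6252 and 5891 in knockout libraries and 9635, 10581 and 9264 in wild-type libraries. All knockout libraries lay far below the others, and rescue overlapped wild type. The mean was 10948 ± 321 in the rescue, 5905 ± 341 in the knockout and 9827 ± 679 in wild type (SD, n = 3 each). It was 1.66-fold lower in the knockout than in wild type (log2 difference -0.67 ± 0.059 SE, limma adjusted p 2.38e-05) and 1.85-fold higher in the rescue than in the knockout (0.82 ± 0.059 SE, limma adjusted p 3.99e-06). Within batches 1, 2 and 3 the knockout differed from wild type by -0.72, -0.70 and -0.59. Rescue and wild type differed by 0.15 (95% interval 0.018 to 0.28, limma adjusted p 0.236). The antisense gene H1FX-AS1 overlaps it in the annotation, and its reads cannot be told apart here.

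H2AX, the variant phosphorylated at DNA breaks, had 3208, 3214 and 3199 normalized counts in rescue libraries, 2714, 2645 and 2589 in knockout libraries and 3760.5, 3870.2 and 3738 in wild-type libraries. The 3 groups did not overlap, with knockout lowest and wild type highest. It was 1.43-fold lower in the knockout than in wild type (limma adjusted p 7.11e-05), 1.21-fold higher in the rescue than in the knockout (limma adjusted p 0.00386) and 1.18-fold lower in the rescue than in wild type (limma adjusted p 0.0259). The rescue call against the knockout was lost without replicate 1 or replicate 3 of every group (limma adjusted p 0.0595 and 0.0787). The call against wild type was lost when any rescue replicate, wild-type replicate 1 or 2, or any batch was left out (0.0595 to 0.254) and when the knockout was left out of the fit (0.0752).

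H3-3A and H3-3B encode the same replacement histone H3.3. H3-3A had 36719, 40777 and 37889 normalized counts in rescue libraries, 29234, 30787 and 29764 in knockout libraries and 37469.5, 33951 and 36613 in wild-type libraries. H3-3B had 36846, 35979 and 36277 normalized counts in rescue libraries, 31651, 31505 and 31309 in knockout libraries and 35192, 38478 and 33232 in wild-type libraries. For both genes the knockout libraries lay below all others and rescue overlapped wild type. H3-3A was 1.2-fold lower in the knockout than in wild type (limma adjusted p 0.0114), a call lost without knockout replicate 1 or without replicate 1 or 3 of every group (0.0584 to 0.19), and 1.29-fold higher in the rescue than in the knockout (0.00116). H3-3B was 1.15-fold higher in the rescue than in the knockout (limma adjusted p 0.0232), a call lost when any rescue or knockout replicate, or batch 1 or 3, was left out (0.0608 to 0.186). In the knockout against wild type H3-3B was not called (limma adjusted p 0.0671), and was called with the batch block (0.0302) or without wild-type replicate 3 (0.0251).

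MACROH2A1, an H2A with a large macrodomain, had 16665, 16631 and 16247 normalized counts in rescue libraries, 12895, 12738 and 12626 in knockout libraries and 14416, 15491 and 14909.7 in wild-type libraries. Knockout libraries were lowest and rescue libraries highest, without overlap. It was 1.17-fold lower in the knockout than in wild type (limma adjusted p 0.00824), a call lost without any 1 batch (0.0542 to 0.105), and 1.29-fold higher in the rescue than in the knockout (0.000212). Other genes overlap H3-3A, H3-3B and MACROH2A1 in the annotation on the opposite strand. H2AZ1 and H2AZ2, which mark promoters, and H2AJ were not called in any comparison. Against wild type in the knockout they differed by -0.052 (95% interval -0.17 to 0.066), 0.015 (-0.086 to 0.12) and 0.038 (-0.083 to 0.16) on the log2 scale.

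MACROH2A2 had 2.06, 0.903 and 8.51 normalized counts in rescue libraries, 0.867, 8.29 and 3.35 in knockout libraries and 1.99, 5.17 and 3.92 in wild-type libraries, too few to compare.

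**Figure D5:**
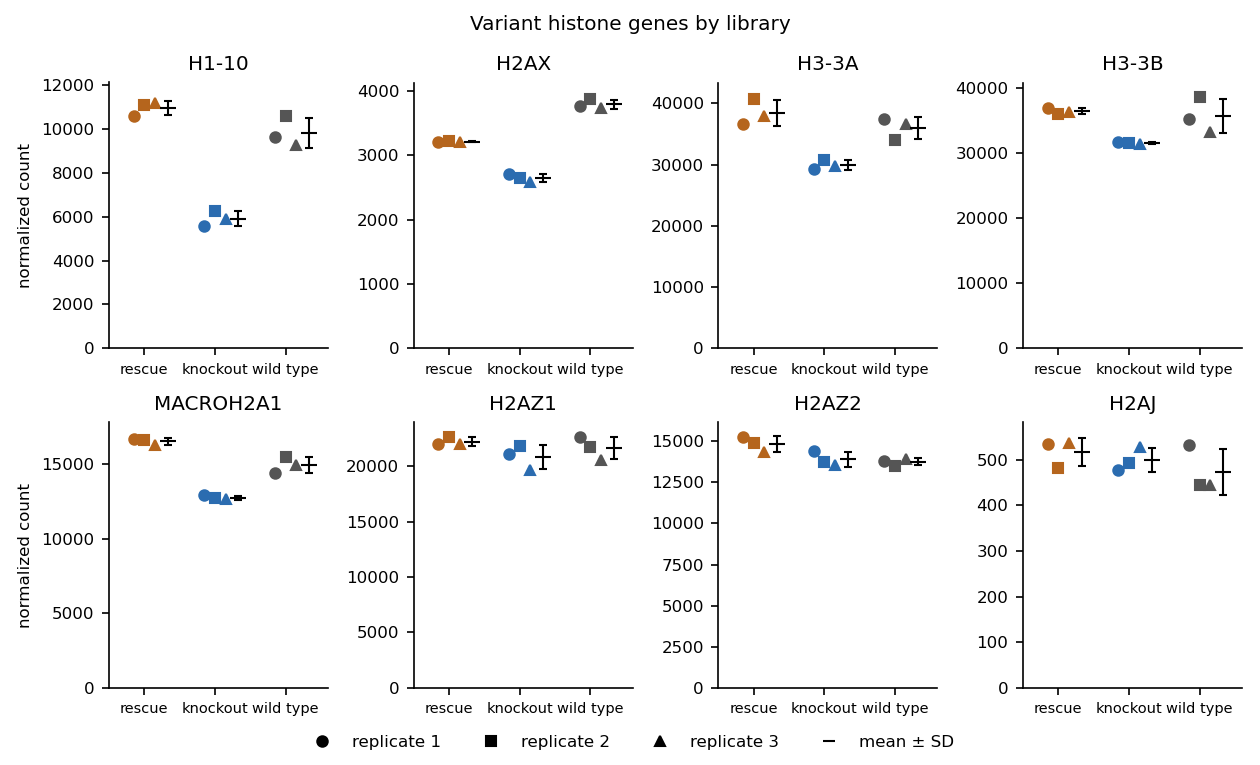
Normalized counts of the 8 tested variant histone genes in each library (points, shaped by replicate), with the mean and SD of each group of 3, every y axis starting at 0. H1-10, H2AX, H3-3A and MACROH2A1 have all knockout points below all wild-type and rescue points, whereas the groups overlap for H2AJ, with a highest mean of 517 in the rescue.

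Genes that make, process or use histone mRNA were described by list. The shares called in each list lay near or below those of all tested genes, which were 7.37% lower and 5.36% higher in the knockout against wild type and 22.1% called in the rescue against the knockout, so the counts describe the named genes and not the lists. Of 34 tested genes for histone mRNA synthesis and processing, 3 (8.82%) fell in the knockout against wild type: POU2AF1, a coactivator for octamer sites, the exonuclease XRN2 and ZNF473, a part of the histone pre-mRNA processing machinery. POU2AF1 had 3864, 3576 and 3766 normalized counts in rescue libraries, 2849, 2857 and 2937 in knockout libraries and 3998, 3275 and 3738 in wild-type libraries. In the rescue against the knockout 4 (11.8%) were called: POU2AF1 and XRN2 rose and the cleavage factors CPSF2 and SYMPK fell, and none of the 34 was called in the rescue against wild type (limma, 3 with an unadjusted p under 0.05). SLBP had 7616, 7659.6 and 6983 normalized counts in rescue libraries, 8151, 8740.4 and 8128 in knockout libraries and 7858, 8711 and 7486 in wild-type libraries, and NPAT, the S phase coactivator of histone genes, had 876, 904 and 925 normalized counts in rescue libraries, 832, 937 and 878 in knockout libraries and 814, 1082 and 750.0 in wild-type libraries. Neither was called in any comparison. For SLBP every rescue library lay below every knockout library, with a limma adjusted p of 0.0981.

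Of 23 histone chaperones, 1 (4.35%), NASP, which holds soluble H3 and H4, fell in the knockout. It had 15632, 16153 and 14848 normalized counts in rescue libraries, 12220.1, 13491 and 11971 in knockout libraries and 14752, 15562 and 14660.3 in wild-type libraries, and rose in the rescue against the knockout with NAP1L1, while RBBP7 and SUPT6H fell, 4 of the 23 (17.4%). None was called in the rescue against wild type (limma, 2 with an unadjusted p under 0.05). Of 30 S phase genes, 2 (6.67%), CDK2 and GINS2, fell in the knockout. Against the knockout, the rescue was called for 5 (16.7%): CDK2, RRM2 and UHRF1 rose and TK1 and CCNA2 fell, and none was called in the rescue against wild type (limma, 3 with an unadjusted p under 0.05). Of 15 genes of G2 and mitosis, PLK1 rose in the knockout, PLK1 and CDC20 fell in the rescue against the knockout, and none was called in the rescue against wild type (limma, 0 with an unadjusted p under 0.05). Of these list calls, those of CDK2 in both comparisons and of TK1 held under every alternative run, and each of the others was lost without at least 1 batch (limma adjusted p up to 0.325). In the 2 comparisons against wild type, the median log2 difference of the S phase genes was −0.048 in the rescue and −0.044 in the knockout. That of the G2 and mitosis genes was 0.096 in the rescue and 0.091 in the knockout. Over all tested genes it was −3.17e-05 and 0.0048. Whether these shifts relate to the histone values was not tested. No gene of a list of RNAs without a poly(A) tail had values here, so the recovery of such RNA per library was not measured.

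Batch 2 was compared with the other batches for the histone genes. This contrast was chosen because earlier results of these data set batch 2 apart. It cannot show a difference between batches 1 and 3. Between batch 2 and the mean of batches 1 and 3, limma called none of the 34 replication-dependent genes (2 with an unadjusted p under 0.05, both lower) and none of the 8 variant genes (1, higher), beside 10.3% of all tested genes (5.3% higher and 5.02% lower in batch 2). In the same contrast 7 of the 30 S phase genes (23.3%) were higher in batch 2.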

How the data were processed

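The deposited table holds 1 log2 value per gene and library for 9 libraries, and its name calls them log CPM. The submitters' processing notes name FastQC 0.11.9, Trimmomatic 0.40, kallisto 0.46.1, R 4.3.2, DESeq2 1.24.0 and GRCh38.p13, without their order. All libraries share the lowest value, 8.598, the form of a variance-stabilizing transform, so the deposited log2 values were inverted with the constant 387.6 (2 to that lowest value) to normalized counts, and CPM was taken from their shares. Of low values in genes with 1 transcript, 83.6% to 98.4% per library were whole multiples of 1 read within 0.05, which gave the depth. limma 3.58.1 in R 4.3.3 (trended prior variance, group as the term, all 9 libraries) ran on the log2 values of 11542 genes, leaving out 5044 below 1 CPM in 3 libraries. It was also run on simulated counts that held no batch effect, so that run does not cover the batch structure of these data. No count test was used, since the deposited values are not counts.

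The batch label equals the replicate number and pairs the libraries. Deviations from group means correlated at 0.187 to 0.51 between libraries of the same number, and 9 of 9 libraries correlated best with their own number. Named genes were the variant members, replication-dependent members called in any comparison or among the 5 highest per length, SOX11, and list genes called. 1 variant member is not reported here by itself. Members and lists were chosen with earlier results of these data known. Stem-loops, hexamers and overlaps came from GENCODE 29, matched by Ensembl identifier except H3C2 and H3C3, and promoters from RefSeq (GRCh38.p14), matched by symbol. The results were recomputed with the batch as a block, without the level filter, at a minimum of 2 on the log2 CPM scale in 3 libraries, on log2(CPM + 1), after median centring, from the compared pair of groups alone, and without each library or batch in turn.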

Additional observations from a re-analysis of the deposited data

How the results depend on the processing

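With the batch as a replicate block, all genes called numbered 2481 in the knockout against wild type (1470 without it) and 930 in the rescue against wild type (470); that pairing added calls for H2AC19, H2BC21 and H3-3B among the 17 histone genes followed, and for CCNA2, CDC20, NAP1L1, RRM2, TK1, ZNF473, CCND1 and PAX5 among 22 list, marker and pseudogene symbols, and ended none. The median log2 difference of the replication-dependent genes under the stricter filter, which keeps fewer genes, was −0.29 in the knockout and −0.39 in the rescue against wild type; with log2(CPM + 1), which compresses low genes less, the 3 medians were −0.38 (knockout against wild type), −0.13 (rescue against knockout) and −0.53 (rescue against wild type). Variant calls in the rescue against wild type were 2 without the filter and 0 with only those 2 groups. Leaving out 1 library or 1 batch gave 574 to 1395, 993 to 2970 and 111 to 427 calls over all genes, 5 to 9, 0 and 2 to 7 replication-dependent calls, and 2 to 5, 3 to 5 and 0 to 1 variant calls, in the knockout against wild type, rescue against knockout and rescue against wild type in that order. The replication-dependent medians then ranged from −0.19 to −0.075, −0.092 to 0.012 and −0.24 to −0.14. Where an arm keeps 2 libraries, its spread is assumed to be that of the pooled fit. Of 912 values of the 17 histone genes under alternatives, 849 kept their call and direction, 56 lost a call and 7 gained one; of 1185 values of the 22 other symbols, 1032 kept theirs, 131 lost a call and 22 gained one; none reversed; the cause of a lost call was not tested. Median centring moved the median of all genes by less than 0.1. At the depth reached, genes under 1 CPM could not be tested, and 26 of the 60 replication-dependent genes were among them.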

Other observations

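Of the 6 pseudogene symbols, H2BC20P and H2BC19P on chromosome 1 were tested and the other 4 were below the filter, with a lowest wild-type mean of 0.349 normalized counts. H2BC20P had 421, 410.5 and 571 normalized counts in rescue libraries, 231, 269 and 232 in knockout libraries and 357, 518 and 373 in wild-type libraries. Knockout libraries lay below all others, and rescue overlapped wild type. H2BC20P was 1.7-fold lower in the knockout than in wild type (limma adjusted p 0.0257) and 1.92-fold higher in the rescue than in the knockout (0.00511). The knockout call was lost without knockout replicate 1 or 3, wild-type replicate 2 or any batch (limma adjusted p 0.0627 to 0.126), and the rescue call without batch 3 (0.0991). H2BC19P had 253, 158 and 106 normalized counts in rescue libraries, 214, 218 and 425 in knockout libraries and 326, 143 and 308 in wild-type libraries and was not called. H2BC19P and H2BC20P overlap each other in the annotation, so their reads may be split uncertainly. H2BC20P starts 124 bases from H2AC19 on the opposite strand.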
